A study of Homo sapiens with 4 samples.

Results

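Homologous recombination and Fanconi anemia genes were described in NUDUL1 cells, a human line from a diffuse large B cell lymphoma of the germinal center type, by the values of 33 genes taken by symbol from a fixed list. All 33 were found among the 25066 genes measured, and all 33 passed the filter of a log2 value above 0 in at least 2 of the 4 libraries, as did 16945 genes in total. The cells came from a single-cell clone with doxycycline-inducible Cas9 and had been transduced with Tbxa2r, a receptor for thromboxane A2. Cells expressing a control sgRNA (control) and cells expressing a sgRNA against GNA13 (GNA13-deficient), with 1 sgRNA per genotype, were both treated with 10 nM U46619, a thromboxane A2 analog, for 24 h, and each genotype gave 2 RNA sequencing libraries. GNA13 encodes Gα13, a G protein subunit that relays signals from receptors such as Tbxa2r. All libraries came from treated cells of 1 line, so the comparison is between genotypes under U46619 and holds no untreated cells. The labels call the replicates duplicates of the treatment and name no separate cultures or days. P values therefore measure only the spread between these libraries, which may be technical.

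Homologous recombination repairs a broken chromosome by copying the intact sister chromatid, which limits the pathway largely to the S and G2 phases of the cell cycle. The kinases ATM and ATR signal the damage, nucleases resect the ends, and BRCA1, PALB2 and BRCA2 bring a strand-exchange recombinase to the resected end. The Fanconi anemia pathway deals with DNA interstrand crosslinks. A core complex attaches ubiquitin to the FANCD2-FANCI clamp at a stalled fork, and the lesion is then unhooked and handed to homologous recombination. Inherited loss of many of these genes causes Fanconi anemia or a predisposition to cancer. Germinal center B cells divide fast while their immunoglobulin genes are being mutated and cut.

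The depth was similar in the 4 libraries, at 29209544 to 31537955 mapped reads, and a member was represented by 183 reads (RAD52) to 6054 reads (FANCI) in a library, with a median of 1108. GNA13 mRNA, the target of the sgRNA, had log2 values of 12.46 and 12.45 in control and 13.10 and 13.11 in GNA13-deficient libraries, so its mRNA did not fall in the libraries whose label names the disruption, and directions are those of the labels. The 9 B cell markers examined, among them MS4A1, CD79A and PAX5, had more than 100 reads in every library. Of the 8 T cell markers, CD3D, CD3E, CD2 and TRAT1 had 0 reads in all 4 libraries. The 8 summed to 144 and 199 reads in control and 21 and 6 in GNA13-deficient libraries, most of them from CD4. The 8 monocyte and macrophage markers summed to 259 and 285 reads against 71 and 54, with S100A8 at 0 throughout, and the 8 epithelial and fibroblast markers to 47 and 50 against 108 and 107, most of them from EPCAM. The part of these low counts in the results was not tested.

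Most homologous recombination and Fanconi genes had more RNA in the GNA13-deficient libraries. Of the 33 genes, 21 rose (63.6%), where a gene counts as changed if limma's p value, adjusted by the Benjamini-Hochberg method over all 16945 genes, was under 0.05. Among all genes tested, 13.1% rose by the same test. ATM and FANCF fell (2 of 33, 6.06%), against 16.6% of all genes. The other 10 did not pass the test. The median log2 difference between genotypes was 0.49 over the 33 genes and -0.02 over all genes, and single genes ranged from -1.50 for ATM to 1.30 for BRCA2. Both GNA13-deficient libraries lay above both control libraries for 24 of the 33 genes, compared with 31.3% of all genes, and below both for 4, compared with 34% of all genes. The genotypes overlapped for the remaining 5. In bulk RNA, a larger share of GNA13-deficient cells in the phases of the cycle that use these genes and more of their RNA per cell cannot be told apart, nor can a smaller share and less RNA per cell where a gene fell.

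**Figure D1:**
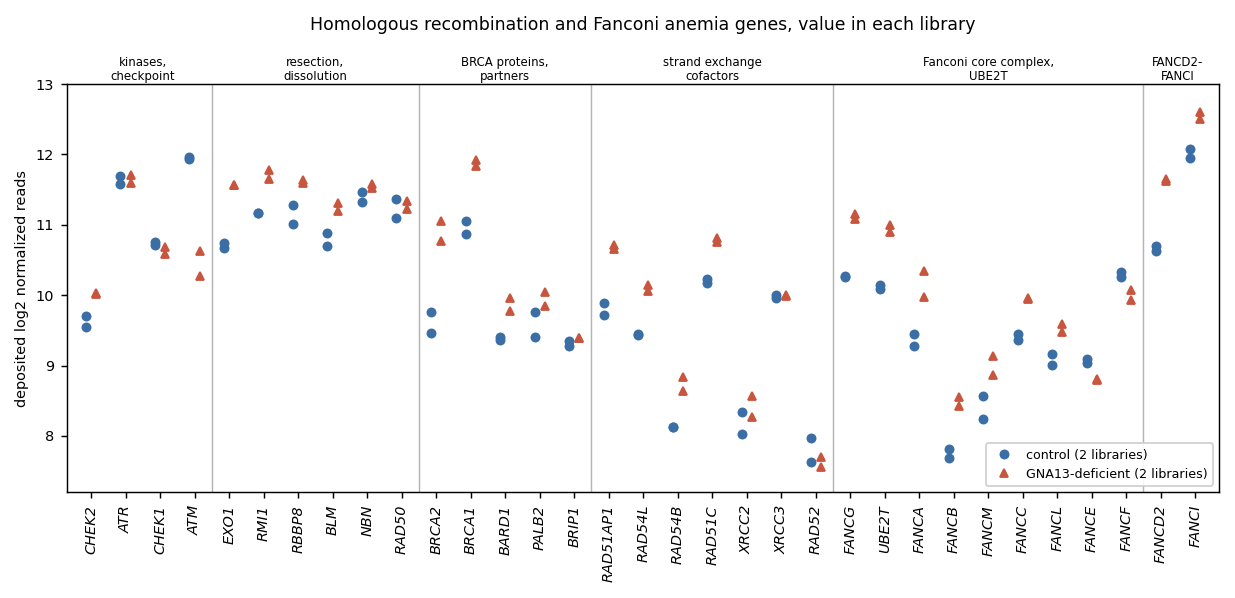
Deposited log2 normalized reads of the 33 genes, in 6 groups by role, with 1 point per library (circles, control, 2 libraries; triangles, GNA13-deficient, 2 libraries). The triangles lie above both circles for 24 genes and below both for 4, among them ATM, which stands farthest below.

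The libraries of 1 genotype lay close together relative to this difference. Measured from the mean of the control libraries, the median of the 33 genes was 0.04 and -0.04 in control replicates 1 and 2. In GNA13-deficient replicates 1 and 2 it was 0.50 and 0.47. The control values mirror each other by construction, because their own mean is the reference. The median of all genes stayed between -0.05 and 0.01 in the 4 libraries on the same scale. The median gap between the replicates of a gene was 0.12 in control and 0.10 in GNA13-deficient libraries for the 33 genes, and 0.14 in both for all genes. Control replicate 1 was above control replicate 2 for 24 of the 33 genes, and the corresponding count was 18 of 33 for the GNA13-deficient replicates. The largest gaps were 0.36 for PALB2 in control and 0.37 for FANCA in GNA13-deficient libraries.

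The size of the shift has to be read beside genes that are often taken as constant. GAPDH had log2 values of 16.09 and 16.29 in control and 16.61 and 16.74 in GNA13-deficient libraries, a difference of 0.49 (adjusted p = 0.0502). GAPDH passed the test where genes under the median level were left out and after centring of each library on its median. GAPDH did not pass without the filter on low values or without the variance trend. ACTB was at 17.65 and 17.80 against 18.05 and 18.12, a difference of 0.37 (adjusted p = 0.205). Relative to GAPDH the median of the 33 genes was 0 and 16 of them lay above it, and relative to ACTB the median was 0.12 and 21 lay above it. Centring each library on its own median moved the median difference of all genes up by 0.21, to 0.18, and that of the 33 genes to 0.70. The share of calls that were higher went from 44.03% to 69.14% over all genes, and the 33 genes then had 26 higher and 1 lower.

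**Figure D2:**
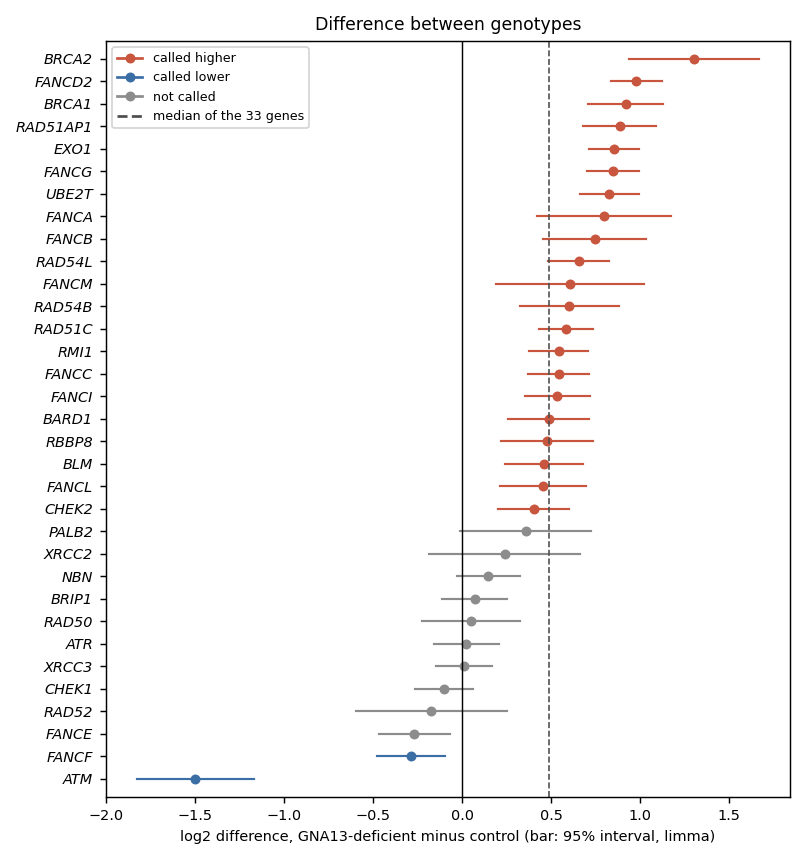
Difference in log2 normalized reads between genotypes (GNA13-deficient minus control, n = 2 libraries each) for the 33 genes, with 95% intervals from limma. The 21 intervals of the genes called higher lie right of 0, those of ATM and FANCF lie left of it, and the dashed line marks the median of 0.49.

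Reference promoters were read to see what sequence the genes share that the choice of the list did not use. RefSeq windows on GRCh38.p14, from 250 bases before to 50 bases after a gene's start, were at hand for 30 of the 33 genes (not NBN, RAD54B or FANCI) and for 9789 of all genes tested. GRCh38.p14 is another build than the hg19 of the expression values, and the windows were joined to them by symbol. A gene with several starts had several windows, and the 30 genes had 41. Each gene counted as holding a motif if any of its windows did. The shares below were not adjusted for the number of windows of a gene. E2F factors, which switch on S phase genes, bind motifs of the type TTTCCCGC, TTTGGCGC, TTTCGCGC or TTTGCCGC, searched on both strands. At least 1 of these 4 was found in 6 of the 30 genes (20%) and in 6.16% of all windowed genes. The 6 were FANCD2, EXO1, FANCA, FANCC and RMI1, which all rose, and XRCC2, which did not pass the test. Their median log2 difference was 0.67, and that of the 24 genes without a match was 0.46, of which 14 rose. A missing match says only that these letters are not in the windows of that gene.

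The stretches that hold the match in the 5 genes that rose are printed to show the motif in its context. Each is given 5′ to 3′ on the strand of its gene with the E2F-type motif, or its reverse complement, in capitals and up to 30 bases on either side, ending at the latest at the base before the gene's start. In FANCD2 and EXO1 the motif lies across or just inside the start, and the stretch ends with it.
FANCD2, chr3:10026405-10026442, plus strand: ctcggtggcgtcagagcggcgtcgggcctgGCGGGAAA
EXO1, chr1:241848178-241848215, plus strand: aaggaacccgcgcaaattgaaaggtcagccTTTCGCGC
FANCA, chr16:89816782-89816849, minus strand: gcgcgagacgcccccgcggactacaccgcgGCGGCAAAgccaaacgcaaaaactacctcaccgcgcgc
RMI1, chr9:83980743-83980804, plus strand: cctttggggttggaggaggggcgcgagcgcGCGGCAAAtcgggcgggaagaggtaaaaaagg
FANCC, chr9:95317718-95317911, minus strand: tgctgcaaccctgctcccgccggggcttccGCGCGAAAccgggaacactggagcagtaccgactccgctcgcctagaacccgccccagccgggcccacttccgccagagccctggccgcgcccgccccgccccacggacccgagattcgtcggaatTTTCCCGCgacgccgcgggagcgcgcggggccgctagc
FANCC held 2 E2F-type matches in opposite orientation.

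Motifs of other kinds were about as common in these genes as in all windowed genes. The CHR motif TTTGAA, which together with a CCAAT box marks many genes of the G2 and M phases, was found in 4 of the 30 genes (13.3%) and in 14.6% of all windowed genes. CCAAT itself was found in 15 of 30 (50%) against 43.1%, and the GC box GGGCGG in 23 of 30 (76.7%) against 73.6%. The CHR motif was in the windows of ATM, BRIP1, UBE2T and FANCC. UBE2T and ATM are printed because they had the motif in common and moved in opposite directions. The CHR motif and the CCAAT box, in either orientation, are in capitals. Another window of ATM, not printed, also held CCAAT.
UBE2T, chr1:202341975-202342119, minus strand: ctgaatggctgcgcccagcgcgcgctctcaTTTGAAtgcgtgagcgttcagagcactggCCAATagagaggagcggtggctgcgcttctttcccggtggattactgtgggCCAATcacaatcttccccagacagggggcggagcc
ATM, chr11:108222849-108223066, plus strand: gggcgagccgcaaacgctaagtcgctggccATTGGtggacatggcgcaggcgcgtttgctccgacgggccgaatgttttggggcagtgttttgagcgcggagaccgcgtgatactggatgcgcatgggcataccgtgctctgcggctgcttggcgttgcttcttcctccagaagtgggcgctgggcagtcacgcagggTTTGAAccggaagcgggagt
These matches describe the reference sequence, and no binding was measured.

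The FANCD2-FANCI clamp is the substrate of the Fanconi pathway, and the mRNA of both of its subunits rose. FANCD2 (Entrez 2177, chr3:10068054-10143616 on GRCh37) had log2 values of 10.70 and 10.62 in control and 11.66 and 11.62 in GNA13-deficient libraries. The replicates of each genotype were almost level and the genotypes stood far apart, with a difference of 0.98 (standard error 0.06, adjusted p = 0.00129), or 1.97-fold. FANCI was at 12.08 and 11.95 against 12.60 and 12.50, a difference of 0.54 (adjusted p = 0.00716). Per kilobase of the canonical transcript, FANCI remained the more abundant of the pair, at 877 normalized reads in control and 1270 in GNA13-deficient libraries, while FANCD2 went from 318 to 626.

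The core complex and its ubiquitin-conjugating enzyme made up 9 of the 33 genes, of which 7 rose, FANCF fell and FANCE did not pass the test, with a median of 0.60. FANCG (Entrez 2189), a scaffold that pairs with FANCA, was at 10.26 and 10.28 in control and 11.08 and 11.15 in GNA13-deficient libraries, a difference of 0.85 (standard error 0.06, adjusted p = 0.00167). UBE2T (Entrez 29089), the conjugating enzyme, was at 10.14 and 10.09 against 10.89 and 10.99, a difference of 0.83 (standard error 0.06, adjusted p = 0.00217). In both genes the replicates were tight and all GNA13-deficient values were higher. FANCA was at 9.45 and 9.27 against 10.34 and 9.97, and its difference of 0.79 (adjusted p = 0.0171) carried the widest replicate gap of the group. FANCB, on the X chromosome, rose by 0.74 (adjusted p = 0.0100) and FANCL, the ubiquitin ligase subunit and its partner, by 0.46 (adjusted p = 0.0229). FANCM, the DNA translocase that anchors the complex, was at 8.57 and 8.23 against 9.14 and 8.87, and with an adjusted p of 0.0473 its rise of 0.60 lay close to the threshold.

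FANCC, FANCE and FANCF form a module of the core complex that contacts FANCD2, and its members did not move together. FANCC was at 9.37 and 9.45 in control and 9.94 and 9.96 in GNA13-deficient libraries and rose by 0.54 (adjusted p = 0.00579). FANCF (Entrez 2188) was at 10.26 and 10.33 against 9.94 and 10.07, a difference of -0.29 (standard error 0.07, adjusted p = 0.0428). FANCE was at 9.04 and 9.09 against 8.79 and 8.81, a difference of -0.27 (95% interval -0.47 to -0.07, adjusted p = 0.0576). Both GNA13-deficient libraries were thus above control for FANCC and below it for FANCE and FANCF. FANCF was not called without the filter on low values, without the variance trend or after centring of each library on its median. FANCE was called lower with no filter on low values and with the genes under the median level left out. After centring, the differences were -0.08 for FANCF and -0.06 for FANCE, and neither was called.

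Among the BRCA proteins and their partners 3 of 5 rose, all 5 differences were positive, and the median was 0.49. BRCA2 (Entrez 675, chr13:32889223-32974405 on GRCh37), which loads the recombinase onto single-stranded DNA, had log2 values of 9.76 and 9.47 in control and 11.06 and 10.78 in GNA13-deficient libraries. Replicate 1 was the higher in both genotypes, and the lower GNA13-deficient library was still well above the higher control. The difference of 1.30 (standard error 0.14, 95% interval 0.94 to 1.67, adjusted p = 0.00422), or 2.47-fold, was the largest rise of the 33 genes. Without the filter on low values the log2 difference of BRCA2 was no longer called (adjusted p = 0.0713). BRCA1 (Entrez 672, chr17:41196312-41322262), which promotes resection, was at 11.05 and 10.87 against 11.92 and 11.84, a difference of 0.92 (standard error 0.08, adjusted p = 0.00276). BARD1, its obligate partner in a ubiquitin ligase, was at 9.36 and 9.41 against 9.97 and 9.78 and rose by 0.49 (adjusted p = 0.0163). All 3 thus rose, with BARD1 by less than BRCA1 and BRCA2, a difference between genes that was not tested.

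PALB2, which bridges BRCA1 and BRCA2, and BRIP1, a helicase that binds BRCA1, did not pass the test. PALB2 was at 9.77 and 9.41 in control and 10.04 and 9.85 in GNA13-deficient libraries, a difference of 0.36 (95% interval -0.01 to 0.72, adjusted p = 0.127), and it passed where genes of low level were left out or each library was centred on its median. BRIP1 was at 9.35 and 9.28 against 9.39 and 9.39, a difference of 0.07 (95% interval -0.11 to 0.25, adjusted p = 0.50). Per kilobase of transcript, control levels in this group ran from 65.8 normalized reads for BRCA2 to 282 for BRCA1, and GNA13-deficient levels from 81.9 for BRIP1 to 532 for BRCA1, with BRCA2 at 163.

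Of the 7 cofactors of strand exchange 4 rose and 3 did not pass the test, with a median of 0.58. RAD51AP1 (Entrez 10635), which stimulates the pairing of homologous strands, was at 9.89 and 9.71 in control and 10.66 and 10.71 in GNA13-deficient libraries, a difference of 0.89 (standard error 0.08, adjusted p = 0.00280). RAD54L and RAD54B, related motor proteins that remodel DNA during strand invasion, rose by 0.65 (adjusted p = 0.00359) and 0.60 (adjusted p = 0.0161). RAD51C rose by 0.58 (adjusted p = 0.00356). Its partner XRCC3 was at 10.01 and 9.95 against 10.00 and 9.99, a difference of 0.01 (95% interval -0.15 to 0.17, adjusted p = 0.925). XRCC2, another paralog of the recombinase, was at 8.34 and 8.03 against 8.57 and 8.28, and RAD52, an annealing protein, at 7.97 and 7.63 against 7.55 and 7.70. The values of both overlapped between genotypes, with differences of 0.24 (95% interval -0.19 to 0.66) and -0.17 (95% interval -0.60 to 0.25). RAD52 changed sign under other scalings, to 0.06 after quantile normalization and 0.04 after centring.

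Of the 6 genes of end resection and of the dissolution of joint molecules, 4 rose and the median was 0.47. EXO1 (Entrez 9156), a nuclease of long-range resection, was at 10.74 and 10.68 in control and 11.56 and 11.56 in GNA13-deficient libraries, a difference of 0.85 (standard error 0.05, adjusted p = 0.00155). RMI1, which works with the BLM helicase to take apart crossed strands, rose by 0.54 (adjusted p = 0.00518) and BLM by 0.46 (adjusted p = 0.0170). RBBP8, known as CtIP, which starts resection, rose by 0.48 (adjusted p = 0.0252), with control values of 11.28 and 11.01 against 11.64 and 11.60. The sensor of broken ends is a complex of MRE11, RAD50 and NBN, of which only MRE11 has no gene among the 33. RAD50 was at 11.36 and 11.10 against 11.34 and 11.22, a difference of 0.05 (95% interval -0.22 to 0.32), and NBN at 11.47 and 11.33 against 11.57 and 11.52, a difference of 0.15 (95% interval -0.03 to 0.33). Neither passed the test. MRE11A, the gene of MRE11, fell by 0.34, from 10.91 and 10.90 to 10.58 and 10.55 (adjusted p = 0.0105).

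The kinases and checkpoint genes held the largest fall. ATM (Entrez 472, chr11:108093771-108239829 on GRCh37), the kinase activated by double-strand breaks, had log2 values of 11.96 and 11.94 in control and 10.63 and 10.27 in GNA13-deficient libraries. The control replicates were level, the GNA13-deficient replicates were apart by 0.36, and both lay far below control. The difference was -1.50 (standard error 0.13, 95% interval -1.83 to -1.17, adjusted p = 0.00246), or 2.82-fold lower. Without the filter on low values the log2 difference of ATM was no longer called (adjusted p = 0.0526). CHEK2, the kinase downstream of ATM, moved the other way and rose by 0.40, from 9.70 and 9.55 to 10.02 and 10.04 (adjusted p = 0.0190).

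The other arm of the checkpoint did not pass the test. ATR, which responds to single-stranded DNA at stalled forks, was at 11.69 and 11.57 in control and 11.71 and 11.60 in GNA13-deficient libraries, a difference of 0.02 (95% interval -0.16 to 0.21, adjusted p = 0.836). CHEK1, its effector kinase, was at 10.71 and 10.76 against 10.58 and 10.68, a difference of -0.10 (95% interval -0.26 to 0.06, adjusted p = 0.293). Both GNA13-deficient values of CHEK1 were below control as deposited, but the difference was 0.11 after centring of each library. ATR was at -0.03 after quantile normalization. Per kilobase of transcript, ATM went from 306 to 109 normalized reads, while ATR was at 389 and 396. ATM was below ATR in both genotypes.

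**Figure D3:**
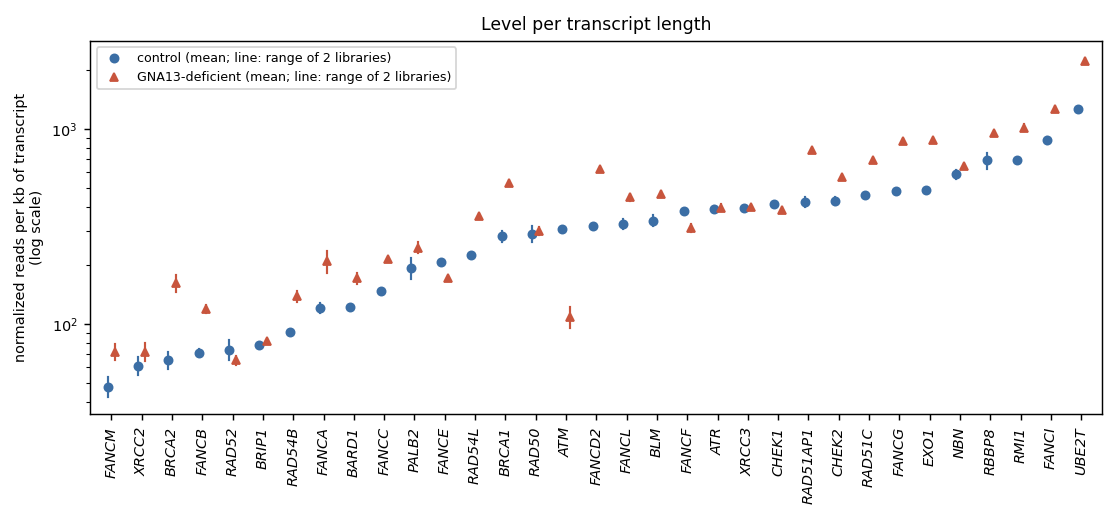
Normalized reads per kilobase of the canonical transcript (log scale), in order of the control level, as the mean and range of the 2 libraries of each genotype. Levels ran from 47.8 for FANCM to 1263 for UBE2T in control, and high and low genes alike were shifted, with ATM crossing downward from 306 to 109.

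The genes differed widely in level, and the change was not ordered by it. Normalized reads per kilobase in control ran from 47.8 (FANCM) to 1263 (UBE2T), the latter at the 85.7th percentile of the genes with a transcript length, whose median was 169. The next in order below UBE2T were FANCI at 877, RMI1 at 697 and RBBP8 at 693, and the last pair did not differ beyond the range of its libraries. Across the 33 genes, Spearman's rho between the control level and the log2 difference was 0.02, a description over genes of the same libraries. The level per kilobase assumes that each gene is expressed as its canonical transcript, which was not tested.

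Other genes of the same pathways also rose more often than they fell. Of 54 further homologous recombination and Fanconi genes, 53 were tested, 23 rose (43.4%) and 3 fell (5.66%), with a median of 0.26. The largest rises among them were STRA13 (Entrez 201254, now CENPX), a partner of FANCM, at 0.84 (adjusted p = 0.00448), and EME1, a subunit of a structure-specific nuclease, at 0.83 (adjusted p = 0.0123). Among genes that passed the test, the largest falls were HUS1, part of a damage checkpoint clamp, at -0.83 (adjusted p = 0.00408), and MRE11A. EME2 was lower still, at -1.09, but did not pass the test (adjusted p = 0.155). The share that rose lay between the 63.6% of the 33 genes and the 13.1% of all genes, and no test was made between the lists.

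Other repair pathways were mixed. Of 13 genes of non-homologous end joining 3 rose (23.1%) and 2 fell (15.4%), with a median of 0.00, against 13.1% and 16.6% of all genes. C9orf142 (PAXX) was at 0.86 and XRCC5, a Ku subunit, at 0.60, whereas the polymerases POLL and POLM were at -0.95 and -0.51. Of 21 nucleotide excision repair genes 3 rose (14.3%, near the share of all genes) and 1 fell (4.76%), with a median of -0.01. CETN2 was at 0.59, DDB2 at 0.45 and GTF2H1 at -0.48. In mismatch repair, which acts behind the replication fork, 6 of 7 genes rose, with MSH3 at 0.92 and MLH3 at 0.79. PMS2 was at -0.54, and near-identical copies of it elsewhere in the genome leave its value uncertain.

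Cell cycle genes moved beside the repair genes. Of 24 S phase markers tested 22 rose and all 24 differences were positive, with a median of 0.72, and POLA1 at 1.10 and RRM2 at 1.09 led them. Of 24 G2/M phase markers 20 rose, with a median of 0.63 and TOP2A at 1.27 and AURKB at 1.11, and CCNB2 fell by 0.44. MKI67, a proliferation marker, was at 12.66 and 12.92 in control and 13.69 and 13.44 in GNA13-deficient libraries, and PCNA, the replication clamp, at 13.35 and 13.35 against 14.21 and 14.28. None of the 33 repair genes was on either list as drawn up here, which does not make them a class apart from S phase genes. The part of cell cycle phase in the repair genes' values was not tested.

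**Figure D4:**
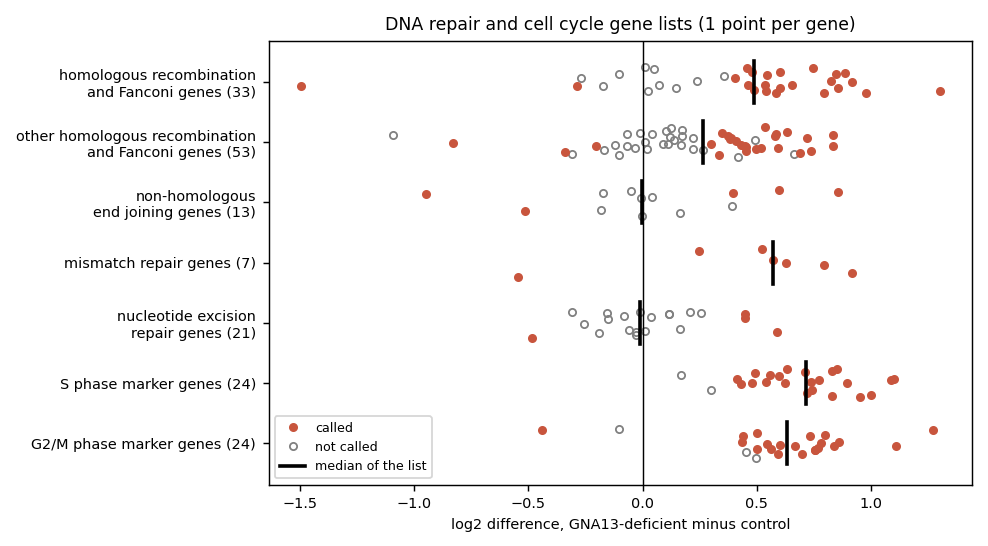
Log2 difference (GNA13-deficient minus control, n = 2 libraries each) of each gene in 7 lists, filled where limma's adjusted p was under 0.05, with the median of each list as a bar. The medians of the 33 genes (0.49), mismatch repair (0.57), S phase (0.72) and G2/M phase (0.63) lie right of 0, and those of end joining and nucleotide excision repair lie at 0.

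Several of these genes start next to another gene on the opposite strand, and the pairs were compared after the values had been seen. Within 1000 bases of their starts on GRCh37, 9 of the 33 genes had such a head-to-head neighbour that was tested. Of the 9 neighbours 2 rose and 3 fell, against 13.1% and 16.6% of all genes, and their median log2 difference was 0.13. So few genes allow no reading of these counts. NBR2, a non-coding gene that starts 187 bases from BRCA1, was at 6.52 and 6.66 in control and 5.46 and 5.43 in GNA13-deficient libraries, and its difference of -1.15 (adjusted p = 0.0171) ran against the rise of BRCA1. NPAT, a histone gene activator 429 bases from ATM, fell with it, from 10.13 and 9.89 to 9.40 and 9.14, a difference of -0.74 (adjusted p = 0.0155). MOSPD2, 352 bases from FANCB, rose by 0.72 (adjusted p = 0.0124), nearly as FANCB did. C12orf4, beside RAD51AP1, rose by 0.28 (adjusted p = 0.0333), and ZFYVE21, beside XRCC3, fell by 0.62 (adjusted p = 0.0118). In the 4 pairs where both genes passed the test, the direction was shared in 3 and opposite in 1.

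**Figure D5:**
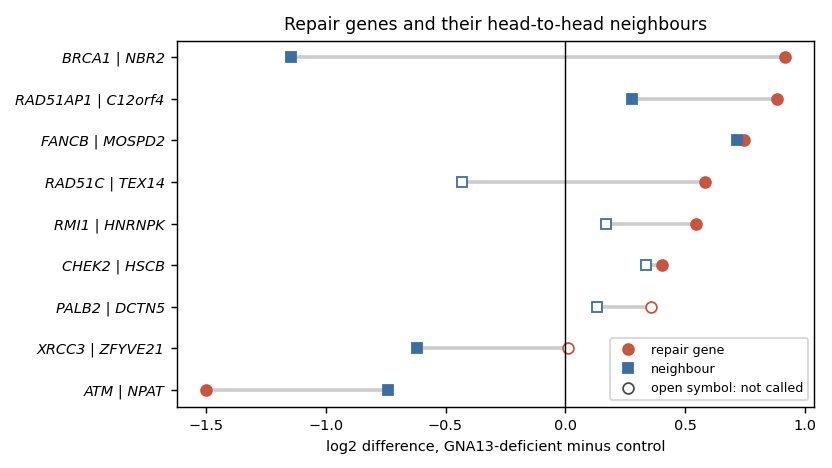
Log2 difference (GNA13-deficient minus control, n = 2 libraries each) of 9 repair genes (circles) and of the gene that starts head to head with each (squares), open where the adjusted p was not under 0.05. BRCA1 and NBR2 lie farthest apart, at 0.92 and -1.15, and FANCB and MOSPD2 nearly coincide.

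Some values are uncertain because reads can be shared. The canonical exons of RAD54L, FANCA, FANCI and FANCL overlap those of a gene on the opposite strand by 431 to 1328 bases, and the strand setting of the authors' counting is not given in the sources used here. ZNF276, which overlaps FANCA by 1328 bases, fell by 0.62 (adjusted p = 0.0190) where FANCA rose. The annotation lists 7 pseudogene copies of CHEK2 and 1 each of BRCA1, RAD51AP1, RAD52, FANCD2 and RBBP8. With any 1 library left out, limma had 1 residual degree of freedom and called none of the 16945 genes, although 5257 to 5600 of all genes and 19 to 25 of the 33 genes had an unadjusted p under 0.05 and their median stayed between 0.43 (without control replicate 2) and 0.54 (without control replicate 1). Without the filter on low values, 9 of the 33 genes were called higher and FANCE alone lower. Without the variance trend 12 were called higher and ATM alone lower. The rises of BARD1, RAD54B, FANCA, FANCI, FANCL, FANCM, BLM, RBBP8 and CHEK2 were not called in either setting. Those of BRCA2, FANCB and RMI1 were not called without the filter.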

How the data were processed

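RNA was sequenced from 2 control and 2 GNA13-deficient libraries, grouped by their titles. The authors prepared libraries with a stranded mRNA kit and aligned reads to hg19 with STAR. The submitters' processing notes also name HTSeq. The annotation and the method of normalization are not given in the sources used here. The deposited values are log2 normalized reads per gene, with 1 row of mapped reads on a linear scale that served as the depth. Low values, up to 400 reads, were whole multiples of 1 read in 100% of cases (tolerance 0.02 reads beside rounding), which gave the reads behind each value. Intervals and p values cover 2 libraries a group only.

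The log2 values were fitted in R 4.3.3 with limma 3.58.1 (lmFit and trended eBayes) and a single term for genotype, on genes above 0 in at least 2 libraries and with no pseudocount. Benjamini-Hochberg adjustment ran over all genes tested, with a threshold of 0.05. The deposited unit is not raw counts, so the main test used no count model. Summaries were made with Python 3.11.15, numpy 2.4.6 and pandas 2.3.3, and figures with matplotlib 3.10.9. Transcript lengths, coordinates and overlaps came from the GENCODE annotation lifted to GRCh37, by canonical transcript, and promoters from RefSeq on GRCh38.p14.

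The genes and lists were chosen with earlier results of these data known. The text names all 33 genes, GNA13, the 2 largest rises and 2 largest falls of each other list among called genes without overlap between genotypes, MKI67, PCNA, GAPDH and ACTB. The genes are given in full where they were called with a log2 difference of at least 0.8 in size, or called lower. Any other gene, the neighbours included, was chosen after its values were seen. A B cell marker of the fixed list is not reported here.

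The alternatives were no filter, keeping genes at or above the median level, a filter of 10 reads in 2 libraries, pseudocounts of 1 and 10, quantile normalization, centring on the library median, a replicate block, no variance trend, a robust variance prior, limma-voom on the recovered reads, and leaving out each library.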

Additional observations from a re-analysis of the deposited data

How the results depend on the processing

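With 2 libraries a genotype, many calls depended on the variance model and the filter. Without the filter on low values, 1999 of all genes were called instead of 5037, with 9 of the 33 genes higher and 1 lower (FANCE, while ATM and FANCF lost the call) and 5 of the other homologous recombination genes higher. Without the variance trend, 2718 genes were called, with 12 of the 33 higher and 1 lower (ATM), and 8 of the other list higher and 1 lower. Centring on library medians gave 26 higher and 1 lower, a median of 0.70, and 1 lower gene on the other list. The log2 difference of RAD52 turned to 0.062 with quantile normalization and to 0.0355 with centring, ATR to -0.029 with quantile normalization and CHEK1 to 0.11 with centring. The cause of these changes was not tested. Pseudocounts, quantile normalization, the robust prior and limma-voom left 21 higher and 2 lower, and the filters at 10 reads and at the median level (31 of the 33 tested) gave 22 and 21 higher and 2 and 3 lower.

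Leaving out 1 library left 1 residual degree of freedom and 0 calls (range 0 to 0) for every count, including both directions of both lists, with 5257 to 5600 genes at an unadjusted p under 0.05. The median of the 33 genes ranged from 0.43 to 0.54. Values near 0 changed sign, with ranges of -0.017 to 0.038 for XRCC3, -0.082 to 0.18 for RAD50 and -0.033 to 0.082 for ATR. Of 361 values of the 33 genes under the other alternatives, 321 kept both direction and call, 25 lost the call, 11 gained it and 4 changed sign.

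With a replicate block, 6616 genes were called, 5011 of them also called without it, and 22 of the 33 were higher (PALB2 added) and 3 lower (FANCE added). No source pairs the numbers. Replicate differences correlated between genotypes at 0.108 over all genes and 0.453 over the upper 8473 genes by mean value, and 2 pairs cannot show a pairing.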
